A study of Rattus norvegicus with 210 samples.

Results

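The mediobasal hypothalamus (MBH) of female rats labelled postnatal day (PND) 22 was compared between perinatal exposure to the lowest dose of diethylstilbestrol (DES) and vehicle. The 10 libraries, 5 labelled D3 and 5 labelled control, were taken by the ending of their column names in the MBH count table, out of 210 libraries in all. Dams were time-mated Sprague-Dawley rats that received corn oil by gavage every day in the control group, and DES at 3 µg/kg bw/day in corn oil in D3. Dosing began on gestation day 7, paused on the day of birth and ended at PND22. The pups were therefore exposed through their mothers, before and after birth. Each library came from the dissected MBH of a differently numbered rat, but the labels do not give the litter, so any littermates within a group would make the p-values too small. In such bulk tissue, fewer cells of a type and less RNA per cell cannot be told apart. Reads assigned to genes numbered 18459642 to 22522907 per library, so that 3 reads, the limit that a count of 0 allows, correspond to 0.133 to 0.163 CPM, the reads on a gene scaled to the library's reads on all genes. Such limits cover counting error only.

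DES is a synthetic estrogen that binds both nuclear estrogen receptors. In the female hypothalamus, estrogens act on neurons of the arcuate, ventromedial and preoptic nuclei, which convey metabolic and gonadal signals to the neurons that release gonadotropin-releasing hormone (GnRH), and sexual maturation depends on the rise of GnRH secretion. Kisspeptin, neurokinin B and dynorphin neurons of the arcuate nucleus drive the pulses of that secretion, while makorin ring finger protein 3, the product of Mkrn3, restrains it before puberty.

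Promoters are given for Npw and Oxt, neuropeptide genes lower and higher in D3, Avp, the neighbour of Oxt, and Ciart, a clock gene. Each is the 250 bases before the annotated start, from RefSeq, build GRCr8, 5′ to 3′ on the strand of the gene. Capitals mark the hexamer AGGTCA on either strand (TGACCT on the other), to which estrogen receptors and several other nuclear receptors bind, and the E-box CACGTG, to which clock proteins bind.
Npw promoter, chr10:14186128-14186377, minus strand: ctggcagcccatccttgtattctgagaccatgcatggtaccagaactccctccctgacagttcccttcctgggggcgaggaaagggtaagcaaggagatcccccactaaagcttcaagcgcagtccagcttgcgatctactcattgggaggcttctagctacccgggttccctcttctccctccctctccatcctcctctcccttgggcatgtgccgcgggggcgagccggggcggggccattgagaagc
Oxt promoter, chr3:138235504-138235753, plus strand: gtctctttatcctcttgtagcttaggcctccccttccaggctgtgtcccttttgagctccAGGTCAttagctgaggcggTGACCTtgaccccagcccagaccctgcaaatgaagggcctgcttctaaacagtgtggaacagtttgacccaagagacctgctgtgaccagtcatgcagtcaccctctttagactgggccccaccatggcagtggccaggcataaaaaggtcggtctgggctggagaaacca
Avp promoter, chr3:138248523-138248772, minus strand: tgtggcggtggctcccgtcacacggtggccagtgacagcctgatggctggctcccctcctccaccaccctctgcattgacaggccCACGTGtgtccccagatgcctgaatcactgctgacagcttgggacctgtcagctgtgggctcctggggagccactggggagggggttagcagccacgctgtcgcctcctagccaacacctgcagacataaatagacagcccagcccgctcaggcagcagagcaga
Ciart promoter, chr2:186112247-186112496, minus strand: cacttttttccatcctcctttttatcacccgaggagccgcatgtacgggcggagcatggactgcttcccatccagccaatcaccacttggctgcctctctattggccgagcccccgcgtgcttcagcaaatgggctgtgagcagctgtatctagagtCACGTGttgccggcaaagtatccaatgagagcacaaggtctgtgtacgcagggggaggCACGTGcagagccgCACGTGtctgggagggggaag

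The Oxt promoter held the hexamer 2 times, once on each strand, starting 190 and 171 bases before the start. The Ciart promoter held 3 E-boxes and the Avp promoter 1, and the Npw window held neither motif. Of the 14765 genes tested, 10848 had a promoter under their symbol. The estrogen response element, read as GGTCA, 3 free bases and TGACC, was in 0 of these windows and in 8 of all 33469 windows. The hexamer was in 10.4% of the windows of tested genes and in 14.1% of all windows, and CACGTG in 8.03% and 5.59%. Among the genes called higher in D3, as defined below, 11.5% of 910 windows held the hexamer and 8.46% the E-box, and among those called lower 8.34% and 6.53% of 827 windows did. These shares describe letters in a short window and say nothing of binding.

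Several libraries stood apart from their labels, which bears on every result that follows. D3 replicate 3 was low in transcripts of the posterior and tuberal hypothalamus. Foxb1, a transcription factor of mammillary neurons, was at 9.31, 11.1, 12.96, 12.7 and 10.1 CPM in control replicates 1 to 5 and at 6.29, 8.06, 2.45, 7.01 and 9.01 CPM in D3 replicates 1 to 5, in the order kept throughout. Lmx1a, another factor of that region, was at 2.46, 3.44, 14.3, 20.1 and 14.5 CPM in control and at 10.7, 9.08, 0.6403, 12.6 and 10.3 CPM in D3. Pmch, which encodes melanin-concentrating hormone of the lateral hypothalamus, was at 4.11 CPM in D3 replicate 3 and at 801 CPM or more in the other 9 libraries. D3 replicate 3 was thus the lowest library for these genes, and control replicates 1 and 2 were low for Lmx1a.

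The same library held transcripts of the preoptic area (POA). Lhx8, a factor of preoptic and septal neurons, reached 17.3 CPM there and at most 0.579 CPM in the other 9 libraries. In the POA libraries of the series labelled PND22, without control replicate 4, whose summed markers were those of the MBH libraries, Lhx8 ran from 3.64 to 54.6 CPM. Summed over lists, D3 replicate 3 lay within that POA range for mammillary genes (13.9 CPM against 7.89 to 14.7 CPM), for genes of the lateral hypothalamus and tuberomammillary nucleus (163 CPM against 115 to 313 CPM), and for preoptic and septal genes (132 CPM against 88.5 to 186 CPM). Across 14765 genes, which are not independent replicates, its log2 levels correlated more with the mean of the POA control libraries other than replicate 4 (r = 0.9912) than with the MBH control mean (r = 0.9842), while the other 9 libraries correlated more with the MBH mean, from which each control library was itself left out. Whether D3 replicate 3 and POA control replicate 4 were exchanged was not tested. The comparison is therefore given with all 10 libraries and without D3 replicate 3.

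**Figure D1:**
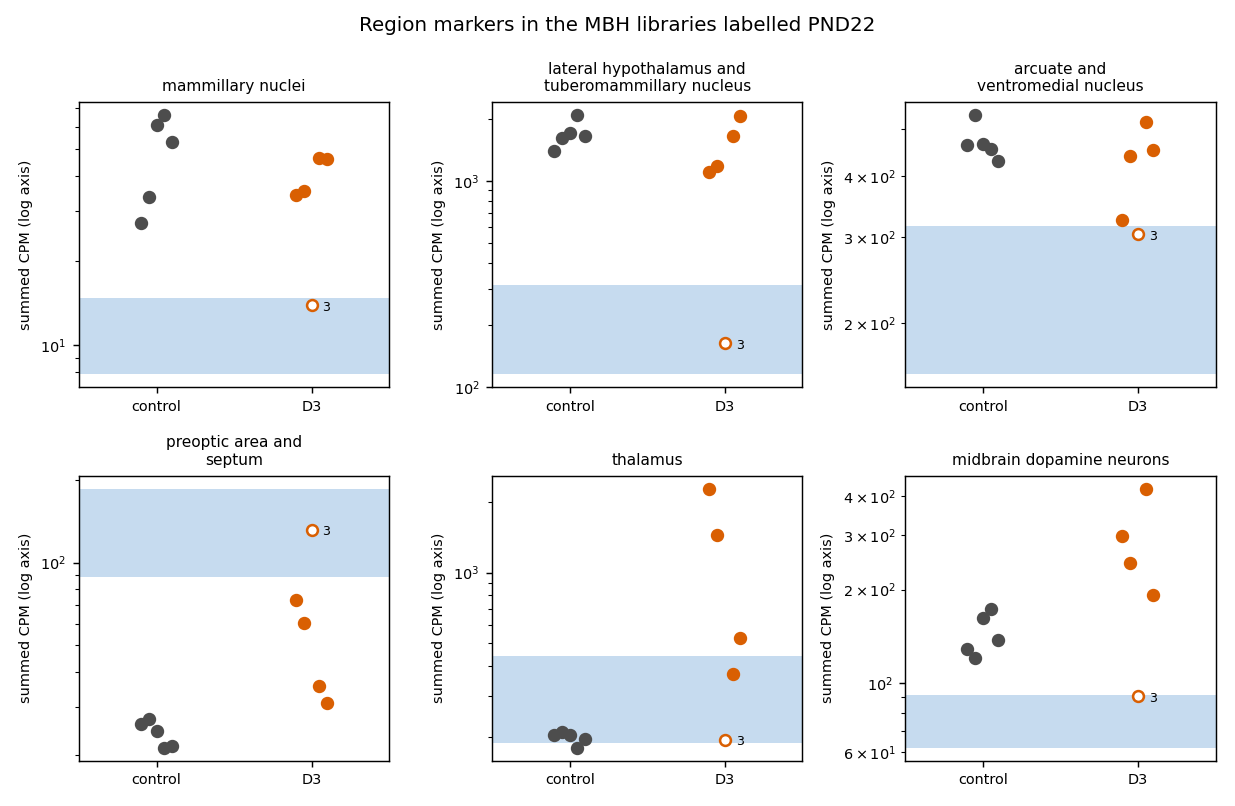
Summed CPM (log axis) of 6 lists of region markers in the 5 control and 5 D3 libraries, 1 point per library, with D3 replicate 3 as an open symbol and the range of the POA libraries labelled PND22, without POA control replicate 4, as a blue band. The open symbol falls within the band for all 6 lists, and thalamic genes reach 2274 and 1448 CPM in D3 replicates 1 and 2 against 180.0 to 209.6 CPM in control.

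The D3 libraries also differed among themselves in thalamic transcripts. The summed level of 18 thalamic genes was 204, 209.6, 204, 180 and 196 CPM in control and 2274, 1448, 195, 372 and 526 CPM in D3, with Prkcd, a protein kinase C of thalamic relay neurons, the most abundant. The sum was high in D3 replicates 1 and 2, moderately raised in replicates 4 and 5, and at control level in replicate 3. No member was at 0 in all 10 libraries. The part of this difference in the other results was not tested, and the number of called genes is given below without these libraries.

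The libraries were then placed by age. From the POA libraries, 35 labelled PND22 and 35 labelled PND42, genes were taken whose levels did not overlap between these ages, the 100 that rose most and all 60 that fell, and an age score was formed for every library as the mean log2(CPM + 0.5) of the rising genes minus that of the falling genes. In the POA the score ran from -1.502 to -0.832 at PND22 and from 0.204 to 0.916 at PND42. The MBH control libraries labelled PND22 ran from -1.06 to -0.681, and the D3 libraries scored 0.547, 0.861, -0.162, 0.773 and 0.553. Thus 4 of the 5 D3 libraries lay within the POA range of PND42, and D3 replicate 3 lay between the ranges. The other exposed MBH groups labelled PND22 were on the side of D3: D6 scored 0.179 to 1.44, D12 0.428 to 1.08, and the ketoconazole groups K3, K6 and K12 0.43 to 1.75, 0.47 to 0.801 and 0.487 to 0.83.

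The MBH control libraries of other ages did not order by their labels either. Those labelled PND42 scored 0.153 to 0.727 and those labelled PND90 -0.78 to -0.531, while POA control libraries labelled PND90 scored 0.267 to 0.711. Some exposed groups were not placed by their labels either. In the POA labelled PND90, K12 scored -0.878 to -0.632 and K6 -0.774 to 0.314, but D3 0.04 to 0.762 and D12 0.197 to 0.794. In the MBH, K12 labelled PND42 scored -1.075 to 0.976 and D12 labelled PND90 -0.661 to 0.955. In edgeR's quasi-likelihood test, with p adjusted by Benjamini and Hochberg over all genes tested and called under 0.05, the control libraries labelled PND90 differed from those labelled PND22 in 10 of 14745 genes (0.0678%; 2189 at an unadjusted p under 0.05), and those labelled PND42 differed from those labelled PND22 in 2295 of 14861 genes (15.4%). By edgeR the D3 libraries labelled PND22 differed from the control libraries labelled PND42 in 0 of 14721 genes (454 at an unadjusted p under 0.05, and 2 called by DESeq2), and without D3 replicate 3 also in 0 (777). Exposure, this difference along the age-ordered genes and an exchange of groups between age labels cannot be told apart within these 10 libraries. Where it helps, the level in the control libraries labelled PND42 is given beside the D3 level.

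**Figure D2:**
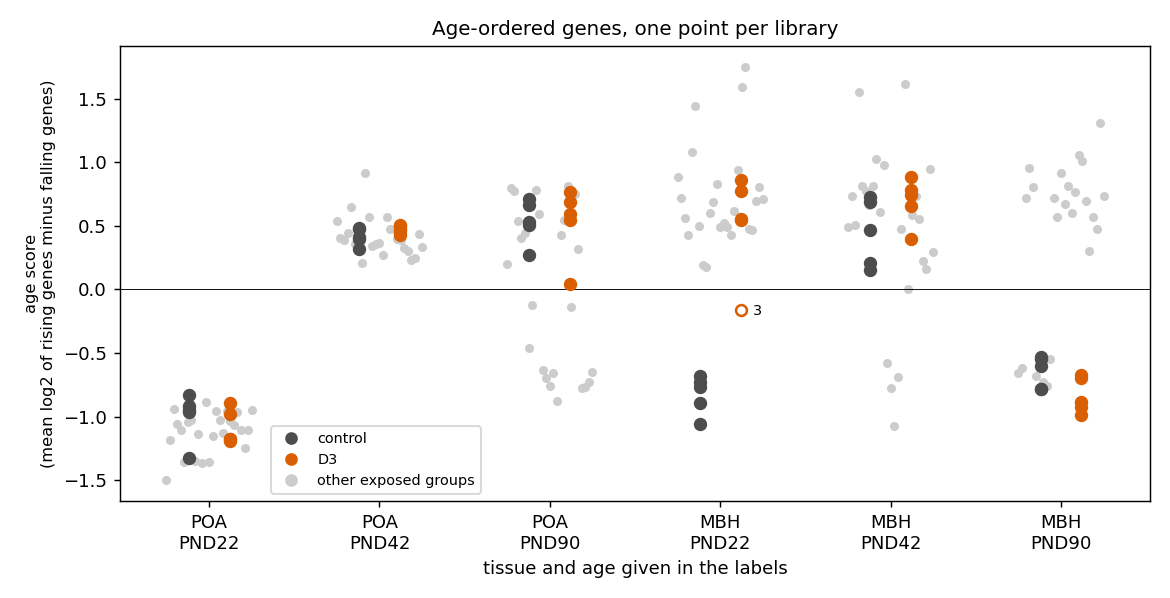
Age score of each of the 210 libraries (mean log2 level of genes that rose minus that of genes that fell between PND22 and PND42 in the POA) by the tissue and age in the labels, for control, D3 and the other exposed groups. The MBH control libraries labelled PND22 lie at -1.06 to -0.681 and the D3 libraries at -0.162 to 0.861, the lowest being replicate 3 (open symbol).

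With all 10 libraries, 2247 of 14765 genes (15.2%) were called between D3 and control, with 1169 higher (7.92%) and 1078 lower (7.3%) in D3, and 4875 genes had an unadjusted p under 0.05. Without D3 replicate 3, 4465 of 14947 genes (29.9%) were called, 2258 higher (15.1%) and 2207 lower (14.8%). Between the fits, 2238 genes were called in both, all with the same sign, 9 only with the library and 2227 only without it. The median log2 fold change over all genes tested was -0.004 and -0.008. After TMM scaling, the 5 D3 values lay entirely outside the 5 control values for 1775 genes (12%), of which 1496 were called. Among the lists described below, the share of members called in either direction with all libraries was near or under 15.2% for GnRH network, neuronal activity, IGF-1, midbrain, striatal, cortical, tanycyte and endothelial genes, so that their counts show nothing particular to these lists. List counts with all libraries stand against 15.2% of all genes, and those without D3 replicate 3 against 29.9%. Over the 10 leave-one-out fits the list counts moved with the total. Delayed-puberty genes gave 0 to 2 higher and 2 to 6 lower, GABA genes 1 to 5 higher and 2 to 8 lower, glutamate genes 3 to 5 higher and 1 to 8 lower, and IGF-1 genes 1 higher and 1 to 6 lower. Chromatin genes gave 6 to 13 lower, cholesterol and steroid synthesis genes 4 to 14 higher, mature oligodendrocyte genes 5 to 13 higher and precursor genes 4 to 8 lower. In each of these ranges the highest number of lower genes, or for the cholesterol and mature oligodendrocyte genes of higher genes, came without D3 replicate 3, and the lowest was reached on leaving out at least 1 control library. Mural and meningeal genes gave 3 lower in every such fit, blood genes 1 to 4 (4 without D3 replicate 2) and astrocyte genes 0 to 2 higher.

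The count moved with the libraries. It was 1234 without D3 replicates 1 and 2, 3779 without D3 replicates 1, 2 and 3, 234 without control replicates 1 and 2, and 1409 without these and D3 replicate 3, combinations chosen after seeing the data. Of these, 1086, 1857, 231 and 1162 were also called with all libraries, each with the same sign. Leaving out 1 control library gave 955 to 1789 calls, and leaving out 1 D3 library 1365 to 4465.

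Of the age-ordered genes, 92 of the 100 that rose with age in the POA were called higher in D3 and 0 lower (median log2 fold change 0.65), and 38 of the 60 that fell were called lower and 0 higher (median -0.45). Without D3 replicate 3 these were 96 of 100 and 54 of 60. Of the genes described below, Tf, Car2, Grm3, S100b, Cbx7, Msmo1 and Fdft1 are among those that rose with age, and Alox15, Pgr15l, Gpr17, Gabre, Dnmt3a and Grb10 among those that fell. The age-ordered genes were chosen by their levels in the POA libraries, POA control replicate 4 included. Candidates were only the genes that passed the filter on low counts in D3 against control. The idea of ordering by age came from earlier results on these data.

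Of the 10 estrogen and other steroid receptors tested, 0 were called higher and 0 lower by edgeR with all libraries (median log2 fold change -0.02), with 4 at an unadjusted p under 0.05. DESeq2 called 4, Esr2, Esrra and Esrrg higher and Gper1 lower. Esr1, estrogen receptor alpha, was at 20.03, 17.9, 16.02, 15.3 and 16.1 CPM in control and at 6.89, 5.71, 48.9, 7.15 and 13.2 CPM in D3. D3 replicate 3 was above every control library, and just above the POA range of 21.8 to 47.6 CPM, while the 4 other D3 libraries were below every control library. The log2 fold change was -0.03 ± 0.50 (SE; adjusted p = 0.98) with replicate 3 and -0.97 ± 0.21 (adjusted p = 0.0075) without it. The control libraries labelled PND42 held 8.15 to 14.8 CPM.

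Esr2, estrogen receptor beta, was at 0.772, 0.806, 0.975, 1.25 and 1.42 CPM in control and at 2.21, 0.876, 2.72, 1.78 and 2.19 CPM in D3 (log2 fold change 0.95 ± 0.31, adjusted p = 0.055; 0.82, adjusted p = 0.067, without D3 replicate 3). By edgeR it was called without D3 replicate 2 (1.14, adjusted p = 0.018), and the adjusted p was 0.059 to 0.13 in the other leave-one-out fits. Pgr, the progesterone receptor and a classical estrogen target, was at 8.702 to 11.0 CPM in control and 4.84 to 14.2 CPM in D3, with a 95% interval of the log2 fold change from -0.52 to 0.33. The groups overlapped for both genes, and for Pgr the library above control was again D3 replicate 3. Without it, the estrogen-related receptors Esrra (0.59, adjusted p = 0.021) and Esrrg (0.69, adjusted p = 0.019) were called higher, and Esr1 and Gper1, a membrane estrogen receptor (-0.73, adjusted p = 0.013), lower. Of 15 coregulators and targets, 0 were called with all libraries by edgeR (2 at an unadjusted p under 0.05) or DESeq2, and Gal, the neuropeptide galanin (-0.55, adjusted p = 0.048), and Prlr, the prolactin receptor (-1.47, adjusted p = 0.0095), were lower without D3 replicate 3. In that library Gal was at 56.2 and Prlr at 7.47 CPM, above the other D3 libraries.

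Among 18 tested genes of the network that controls GnRH, 3 were called lower and 0 higher (median log2 fold change -0.23), near the 15.2% of all genes called in either direction. Without D3 replicate 3 it was 6 lower and 1 higher, against 29.9% of all genes called in either direction. Mkrn3 was at 3.48, 3.38, 3.62, 3.31 and 2.31 CPM in control and at 1.41, 1.24, 1.49, 1.68 and 1.87 CPM in D3. All D3 libraries, replicate 3 included, were below all control libraries. The log2 fold change was -0.99 ± 0.19 (adjusted p = 0.007) and -0.97 (adjusted p = 0.0059) without replicate 3, and control libraries labelled PND42 were at 1.07 to 1.76 CPM.

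Nkx2-1, a homeodomain factor of the basal hypothalamus, was at 25.97, 27.8, 29.9, 24.5 and 23.9 CPM in control and at 10.6, 12.3, 12.9, 13.6 and 15.8 CPM in D3 (-0.95 ± 0.11, adjusted p = 0.001). Pdyn, which encodes dynorphin, was at 158, 199, 138, 138 and 136 CPM in control and at 69.96, 84.2, 77.7, 131 and 124 CPM in D3 (-0.59 ± 0.18, adjusted p = 0.045). Neither gene's groups overlapped, but Pdyn of D3 replicates 4 and 5 came close to control, and its call was lost in 7 of the 10 leave-one-out fits, with an adjusted p of up to 0.11.

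Kiss1, Tac3 and Gnrh1 were not called. Kiss1, kisspeptin, was at 1.25 to 2.74 CPM in control and 0.855 to 4.695 CPM in D3, with a 95% interval of the log2 fold change from -0.53 to 0.99, and Tac3, neurokinin B, at 14.1 to 17.8 CPM and 8.299 to 27.3 CPM (0.26, adjusted p = 0.44). Gnrh1 was at 1.45, 1.83, 0.836, 0.379 and 0.844 CPM in control and at 0.402, 1.11, 14.8, 1.14 and 1.78 CPM in D3 (1.87, adjusted p = 0.14). The highest D3 value of each of the 3 genes was that of replicate 3, and without it the log2 fold changes were -0.21, 0.07 and 0.15 with adjusted p of 0.64, 0.8 and 0.83.

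Of 26 tested genes whose mutation leads to hypogonadotropic hypogonadism or delayed puberty, 2 were called higher and 4 lower (median log2 fold change -0.03). Without D3 replicate 3 it was 2 and 6. Of all genes tested, 15.2% and 29.9% were called in either direction in these fits. The count without D3 replicate 3 is near that share and shows nothing particular to this list. Some members of this list were singled out by the study on these samples, and for them the direction is not independent evidence. The same holds for genes of other lists that the study tabulated from these samples. Among these are Mkrn3, Npw, Agrp, Oxt, Avp, Gabre, Gabrd, Grm3, Slc17a7, Cbx7, Ezh1, Ezh2, Dnmt3a, Per3, Igfbp5 and Gpr17. Igsf10, needed for the migration of GnRH neurons, was at 29.7, 27.01, 29.02, 19.1 and 26.02 CPM in control and at 12.8, 12.6, 19.6, 12.9 and 14.6 CPM in D3 (-0.80 ± 0.14, adjusted p = 0.0055). Replicate 3 alone among D3 reached the lowest control value. Sema3a, a guidance factor, was at 6.44 to 8.78 CPM in control and 2.03 to 4.38 CPM in D3 (-1.15 ± 0.19, adjusted p = 0.0045), and Nr0b1, a nuclear receptor of the reproductive axis, at 1.72 to 2.799 CPM and 0.427 to 1.34 CPM (-1.25 ± 0.30, adjusted p = 0.019; 0.056 without control replicate 1).

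The pair that rose, Sema7a, a semaphorin (1.10, adjusted p = 0.033), and Nsmf, a synapse-to-nucleus messenger (1.25, adjusted p = 0.024), were highest in the libraries with the most thalamic transcripts. Nsmf was at 150, 144, 139, 140.4 and 130 CPM in control and at 498, 505, 135, 206 and 244 CPM in D3. These calls were lost in 7 and 5 of the 10 leave-one-out fits (adjusted p up to 0.087 and 0.059), and without D3 replicates 1 and 2 together 0 genes of the list were higher and 2 lower. Without D3 replicates 1, 2 and 3, however, both were again called higher, with 2 genes higher and 4 lower in all. Without control replicates 1 and 2, 0 genes of the list were called in either direction by edgeR (5 at an unadjusted p under 0.05).

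**Figure D3:**
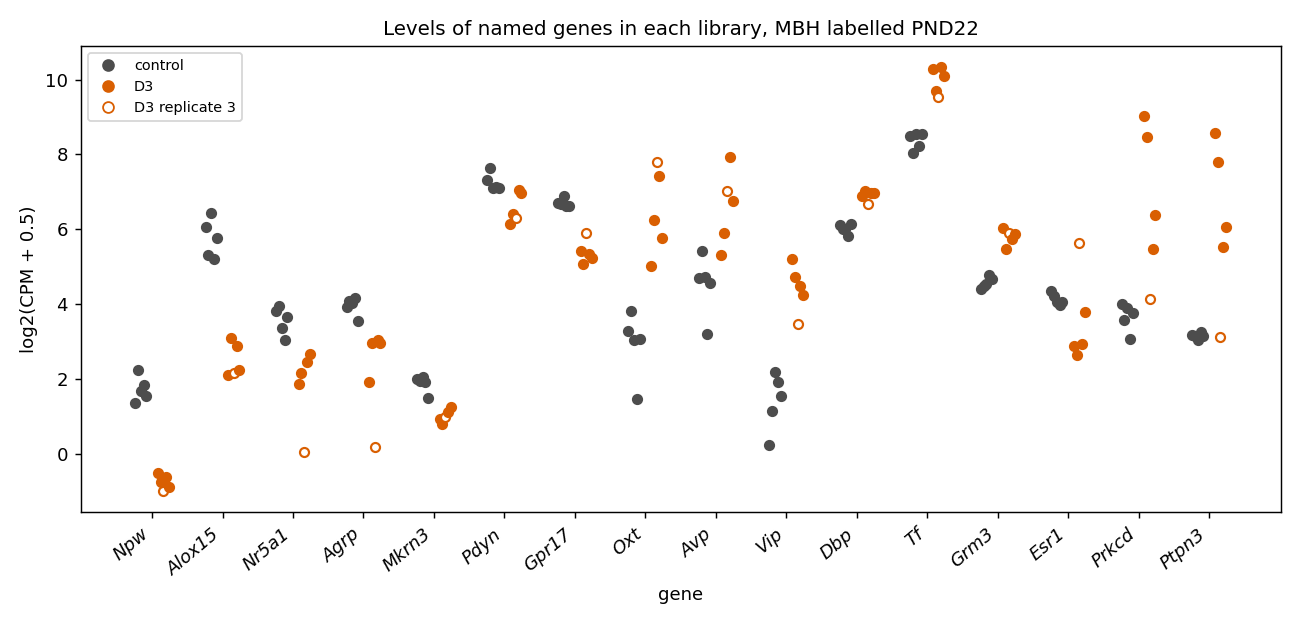
Levels of 16 genes as log2(CPM + 0.5) in each control and D3 library of the MBH labelled PND22, with D3 replicate 3 as an open symbol. The groups do not overlap for Npw, Alox15, Nr5a1, Agrp, Mkrn3, Pdyn, Gpr17, Oxt, Vip, Dbp, Tf, Grm3 and Prkcd, whereas for Esr1 D3 replicate 3 lies above control and the other D3 libraries below.

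Of 21 tested markers of the arcuate and ventromedial nuclei, 7 were called lower and 0 higher with all libraries (median log2 fold change -0.33), and 9 lower and 1 higher without D3 replicate 3. Leaving out control replicate 1, control replicate 2 or D3 replicate 2 gave 3 lower. Leaving out control replicates 1 and 2 together gave 1 lower, which was Npw. Taking the replicate number as a block gave 2 lower, Adcyap1 and Npw. Every count of lower genes given here for this list includes Npw, which for the reason below is not read as tested. Without D3 replicates 1, 2 and 3 the counts were 7 lower and 2 higher. Npw, neuropeptide W, a peptide of feeding and stress circuits, was at 2.08, 4.19, 2.69, 3.09 and 2.44 CPM in control, 291 reads in all, and at 0.201, 0.0922, 0, 0.148 and 0.0446 CPM in D3, 10 reads in all. Every D3 library was near or under the limit that a count of 0 allows, and every control library far above it. Npw passed the filter on low counts only through the control libraries, so no fold change or test is given. Npw was at 0 to 0.0446 CPM in the MBH control libraries labelled PND42 and at 2.25 to 4.98 CPM in those labelled PND90.

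Nr5a1, steroidogenic factor 1 of ventromedial neurons, was at 13.5, 14.98, 9.84, 7.801 and 12.2 CPM in control and at 3.17, 3.96, 0.534, 4.98 and 5.89 CPM in D3 (-1.57 ± 0.41, adjusted p = 0.027). Agrp, the appetite-stimulating agouti-related peptide, was at 14.6, 16.6, 15.8, 17.3 and 11.2 CPM in control and at 3.27, 7.24, 0.6403, 7.79 and 7.23 CPM in D3 (-1.45 ± 0.43, adjusted p = 0.043). In both the lowest library was again D3 replicate 3, and without it the differences were smaller and the groups still apart (-1.29, adjusted p = 0.0021; -1.17, adjusted p = 0.0037). With all libraries, however, these calls were lost in 4 and 9 of the 10 leave-one-out fits (adjusted p up to 0.07 and 0.089).

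Adcyap1, the peptide PACAP, was at 96.2 to 112 CPM in control and 56.5 to 80.5 CPM in D3 (-0.48 ± 0.09, adjusted p = 0.0085), and Tbx3, a factor that maintains the identity of arcuate neurons, at 6.66 to 12.8 CPM and 1.601 to 5.08 CPM (-1.29 ± 0.28, adjusted p = 0.013). Neither gene's groups overlapped. Pomc, the melanocortin precursor, was at 45.6, 46.1, 55.4, 30.8 and 27.3 CPM in control and at 22.3, 42.7, 2.08, 55.4 and 49.04 CPM in D3 (-0.18, adjusted p = 0.84; 0.12 without D3 replicate 3). Apart from replicate 3, Pomc in D3 lay within or close to the control range.

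In the lateral hypothalamic and tuberomammillary list, Nptx2, a synaptic pentraxin, was lower (-0.95, adjusted p = 0.0091) and Lhx9, a transcription factor also made in thalamic cells, higher (2.54, adjusted p = 0.017), out of 7. Hdc, the enzyme of histamine synthesis, was at 139, 90.9, 177, 115 and 112 CPM in control and at 42.1, 51.6, 3.095, 74.2 and 59.6 CPM in D3 (-1.38, adjusted p = 0.089; -1.08 without D3 replicate 3). Hdc groups were apart in either case, and D3 replicate 3 made the spread of D3 wide. Of 9 mammillary genes, 0 were higher and 0 lower by edgeR with all libraries (1 at an unadjusted p under 0.05) and by DESeq2. The mammillary, lateral hypothalamic and tuberomammillary genes served to set D3 replicate 3 aside, so their values without it are a description and no test.

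Oxytocin and vasopressin transcripts of the magnocellular system rose. Oxt, whose promoter is given above, was at 9.31, 13.6, 7.66, 2.27 and 7.81 CPM in control and at 31.8, 75.7, 221, 170.3 and 54.2 CPM in D3. All D3 libraries were above all control libraries, with replicates 3 and 4 highest. The log2 fold change was 3.81 ± 0.55 (adjusted p = 0.0023) and 3.42 (adjusted p = 0.00092) without D3 replicate 3. The MBH control libraries labelled PND42 held 67.5 to 152 CPM and those labelled PND90 9.46 to 96.7 CPM.

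Avp, vasopressin, was at 25.5, 42.6, 26, 8.78 and 23.1 CPM in control and at 39.1, 59.6, 129.7, 242 and 108 CPM in D3, so that D3 replicate 1 fell below control replicate 2 (2.26 ± 0.47, adjusted p = 0.011). Crhr2, a receptor for urocortins, was lower (-0.81, adjusted p = 0.032), a call lost in 6 of the 10 leave-one-out fits, with an adjusted p of up to 0.09. Crh and Trh, the releasing hormones of the adrenal and thyroid axes, were not called (0.66, adjusted p = 0.29, and 0.13, adjusted p = 0.76). In all, 2 of 12 tested members of this list were higher and 1 lower (median log2 fold change 0.12), and 2 and 3 without D3 replicate 3.

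Of 6 markers of the suprachiasmatic nucleus, the circadian pacemaker, 3 rose and 0 fell (median log2 fold change 0.54). Vip, its light-responsive neuropeptide, was at 0.676, 1.72, 4.09, 3.31 and 2.44 CPM in control and at 36.4, 26.04, 10.5, 21.9 and 18.3 CPM in D3 (3.27 ± 0.43, adjusted p = 0.0016). The groups were widely apart, with replicate 3 lowest of D3. Vipr2, the receptor of this peptide (1.06, adjusted p = 0.016), and Grp, gastrin-releasing peptide (1.01, adjusted p = 0.024), rose too, the latter losing its call in 6 of the 10 leave-one-out fits, with an adjusted p of up to 0.064. Vip is also made outside this nucleus. The summed level of the list was highest, 84.4 CPM, in D3 replicate 1, the library with the most thalamic transcripts, and its most abundant member, Rorb, was not called.

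In the circadian clock, 4 of 16 genes were called higher and 1 lower (median log2 fold change 0.18). Dbp, a clock output factor, was at 69.3, 64.5, 63.6, 55.9 and 69.7 CPM in control and at 118, 129.6, 101, 125 and 126 CPM in D3 (0.96 ± 0.09, adjusted p = 0.00026). Nr1d1, a repressor of the clock (0.73, adjusted p = 0.0013), Ciart, another repressor whose promoter is given above (1.18, adjusted p = 0.0038), and Cry2, a cryptochrome (0.39, adjusted p = 0.027, its call lost in 5 of the 10 leave-one-out fits, adjusted p up to 0.067), were higher as well, and Per3, a period gene, lower (-0.63 ± 0.10, adjusted p = 0.0041). Dbp, Nr1d1 and Ciart of every D3 library exceeded every control library. The hour at which tissue was taken is not in the labels, and its part was not tested. Nr1d1 was at 70.3 to 97.5 CPM in D3 and at 42 to 70.3 CPM in the control libraries labelled PND42.

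Of 20 neuronal activity genes, 3 were called higher and 0 lower (median log2 fold change 0.36), and 4 and 0 without D3 replicate 3, against 15.2% and 29.9% of all genes tested called in either direction. The count depended on the libraries and the tool: it was 8 higher without D3 replicate 1 and by DESeq2, Fosb, Junb, Egr1, Arc and Npas4 joining in both, and 0 higher or lower by edgeR without control replicates 1 and 2 (5 at an unadjusted p under 0.05). Bdnf, the neurotrophin, was called lower by DESeq2 and by edgeR without D3 replicate 2, without D3 replicates 1 and 2, and without D3 replicates 1, 2 and 3, where Creb1, the factor CREB, was lower too. Fos, an immediate early transcription factor, was at 9.51, 15.2, 8.36, 18.1 and 21.5 CPM in control and at 16.5, 43.1, 38.2, 28.9 and 37.2 CPM in D3 (1.23 ± 0.29, adjusted p = 0.019; 0.054 without control replicate 1). D3 replicate 1 was within the control range and the others above it. Nr4a1, an orphan receptor induced by activity, was at 6.27, 11.9, 7.85, 13.4 and 12.2 CPM and at 12.3, 26.1, 28.6, 22.6 and 28.9 CPM (1.25 ± 0.25, adjusted p = 0.0094), with the same overlap by D3 replicate 1. Dusp1, a MAP kinase phosphatase, was at 13.3 to 20.7 CPM in control and 25.9 to 59.3 CPM in D3 (1.41 ± 0.22, adjusted p = 0.0036). Against the control libraries labelled PND42, Fos was 0.87 and Nr4a1 1.33 higher in D3 on the log2 scale, with 95% intervals from 0.24 to 1.504 and from 0.80 to 1.86, but with an adjusted p of 1 by edgeR.

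Of 22 GABA genes, 4 were higher and 3 lower (median log2 fold change -0.01), and without D3 replicate 3 these counts were 5 and 8. Without control replicates 1 and 2, 0 were called in either direction by edgeR (7 at an unadjusted p under 0.05). Gabre, the epsilon subunit of the GABA-A receptor, was at 78.6, 95.5, 67.1, 67.7 and 67.6 CPM in control and at 16.6, 22.6, 54.1, 25.01 and 29.1 CPM in D3 (-1.30 ± 0.24, adjusted p = 0.007). All D3 libraries were lower, replicate 3 least. Gabra5, the alpha 5 subunit, was at 86.1 to 99.4 CPM and 55.9 to 72.01 CPM (-0.46 ± 0.07, adjusted p = 0.0039). Gabbr1, a GABA-B receptor, was at 1569 to 1735 CPM and 1662 to 1949 CPM (0.23 ± 0.06, adjusted p = 0.034), and this call was lost in 8 of the 10 leave-one-out fits, with an adjusted p of up to 0.088. Gabrd, the delta subunit and one of the thalamic markers, was at 1.59, 2.202, 1.86, 1.25 and 1.95 CPM in control and at 88.7, 51.8, 0.427, 7.4 and 16.1 CPM in D3 (4.29 ± 0.96, adjusted p = 0.015). It was highest in the libraries rich in thalamic transcripts, as were Gabra4 and Gabbr2, also called higher, each in only 3 of the 10 leave-one-out fits (adjusted p up to 0.1 and 0.11).

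Of 33 glutamate genes, 3 were higher and 4 lower (median log2 fold change -0.06), and 5 and 8 without D3 replicate 3. In these fits, 15.2% and 29.9% of all genes tested were called in either direction. Grm3, a metabotropic receptor of astrocytes and neurons, was at 20.9, 22.02, 22.9, 27.03 and 24.9 CPM in control and at 65.5, 43.7, 59.1, 53.4 and 58 CPM in D3 (1.31 ± 0.12, adjusted p = 0.00026). The D3 values were close to one another, replicate 3 among them, and control libraries labelled PND42 held 45.6 to 55.04 CPM. Grm8, a presynaptic metabotropic receptor, was at 29.4 to 32.1 CPM and 19.1 to 22.98 CPM (-0.47 ± 0.09, adjusted p = 0.0057). The other genes called higher, Slc17a7 and Grid2ip, are on the thalamic list, and Slc17a7, a vesicular glutamate transporter, was at 2.27, 1.83, 2.14, 2.17 and 0.799 CPM in control and at 56.4, 31.2, 1.601, 4.83 and 8.66 CPM in D3 (3.57 ± 0.82, adjusted p = 0.017).

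Of 28 chromatin genes, 9 were lower and 2 higher (median log2 fold change -0.20), and 13 and 2 without D3 replicate 3. Cbx7 and Cbx6, chromodomain proteins of Polycomb repressive complex 1, went opposite ways. Cbx7 was at 51.4, 46.99, 45.6, 46.6 and 49.1 CPM in control and at 66.5, 71.5, 72.03, 63.7 and 68.3 CPM in D3 (0.57 ± 0.06, adjusted p = 0.00052). Cbx6 was at 301 to 306 CPM and 197 to 225 CPM (-0.47 ± 0.06, adjusted p = 0.0012). Both genes' groups were tight and apart.

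The methyltransferases of histone H3 lysine 27 diverged as well. Ezh1, the form of mature cells, was at 64.5 to 71.97 CPM in control and 88.8 to 99.4 CPM in D3 (0.51 ± 0.07, adjusted p = 0.0016), and Ezh2, the form of dividing cells, at 7.46 to 10.9 CPM and 4.98 to 5.48 CPM (-0.75 ± 0.14, adjusted p = 0.0057). The de novo DNA methyltransferase Dnmt3a was at 43.2, 47.05, 40.2, 36.5 and 41.2 CPM in control and at 23.3, 13.8, 32.9, 15.1 and 20.1 CPM in D3 (-0.93 ± 0.19, adjusted p = 0.011). It was lower in every D3 library, least so in replicate 3, and at 14.2 to 29.04 CPM in the control libraries labelled PND42. Dnmt3b, the other enzyme of this kind, fell too, from 1.62 to 1.88 CPM in control to 0.493 to 0.9604 CPM in D3 (-1.06 ± 0.21, adjusted p = 0.009).

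In insulin-like growth factor 1 signaling, 1 of 27 genes was higher and 3 were lower (median log2 fold change -0.13), about the share of all genes tested. Without D3 replicate 3 it was 1 and 6, against 29.9% of all genes called in either direction. This count shows nothing particular to the list either. Igfbp5, a binding protein, was at 217, 180.2, 224, 150.2 and 211 CPM in control and at 371, 321, 428, 302 and 327 CPM in D3 (0.89 ± 0.12, adjusted p = 0.0016), every D3 library being higher. Akt2, a kinase downstream of the receptor, was lower (-0.41 ± 0.09, adjusted p = 0.015). Pik3r1, a regulatory subunit of PI 3-kinase, and Grb10, an adaptor that restrains the receptor, were lower as well (-0.37, adjusted p = 0.032, and -0.48, adjusted p = 0.038), but these calls were lost in 5 and 9 of the 10 leave-one-out fits (adjusted p up to 0.075 and 0.085). Igf1 itself was at 2.74 to 5.201 CPM in control and at 9.15, 3.46, 2.99, 4.09 and 3.17 CPM in D3 (0.22, adjusted p = 0.65), the high value being that of D3 replicate 1.

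Of 26 genes of cholesterol synthesis and uptake and of steroid synthesis, 7 were higher and 0 lower (median log2 fold change 0.23), and 14 and 0 without D3 replicate 3. Fdft1, squalene synthase, was at 149, 149, 169.5, 172 and 179 CPM in control and at 219, 235, 196, 233 and 209 CPM in D3 (0.48 ± 0.08, adjusted p = 0.0053). Msmo1, a sterol oxidase (0.58, adjusted p = 0.0072), and Insig1, the sterol sensor (0.53, adjusted p = 0.016), were higher too. Replicate 3 was the lowest D3 library for all 3 of these genes. Without control replicates 1 and 2, 0 members were called in either direction by edgeR (8 at an unadjusted p under 0.05). Of 18 PPAR and RXR genes, 0 were called with all libraries by edgeR (1 at an unadjusted p under 0.05) or DESeq2 (median -0.09), and Rxrg, a retinoid X receptor, was lower without D3 replicate 3.

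Early and late stages of the oligodendrocyte lineage had opposite signs. Of 19 genes of mature oligodendrocytes and myelin, 8 were higher and 1 lower (median log2 fold change 0.51), and 13 and 1 without D3 replicate 3. Of 16 genes of precursors and newly formed oligodendrocytes, 6 were lower and 1 higher (median -0.32), and 8 and 1 without it. Gpr17, a receptor of newly formed oligodendrocytes, was at 104, 102, 118, 97.5 and 97.2 CPM in control and at 42.1, 33.2, 59.3, 40.4 and 36.9 CPM in D3 (-1.23 ± 0.13, adjusted p = 0.00047). The groups were far apart, with replicate 3 highest of D3. Across the series, Gpr17 was at 32.5 to 45.4 CPM in the MBH control libraries labelled PND42 and at 106 to 136 CPM in those labelled PND90, and at 95.3 to 193 CPM and 35.3 to 68.7 CPM in POA libraries labelled PND22 and PND42.

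Pdgfra, the receptor that marks precursors, was at 141 to 182 CPM in control and 85.1 to 135 CPM in D3 (-0.57 ± 0.11, adjusted p = 0.0082), and Enpp6, a marker of cells about to myelinate, at 19.98 to 30.2 CPM and 9.25 to 17.3 CPM (-0.89 ± 0.16, adjusted p = 0.0062). The precursor list's member that rose was Tcf7l2, a factor that is also on the thalamic list, a call lost in 7 of the 10 leave-one-out fits (adjusted p up to 0.082). On the mature side, Tf, transferrin, an iron carrier made by oligodendrocytes, was at 361, 262, 376, 296 and 371 CPM in control and at 1242, 827, 747, 1289 and 1089 CPM in D3 (1.71 ± 0.17, adjusted p = 0.00045). Every D3 library was above every control library. Car2, carbonic anhydrase 2 (1.18, adjusted p = 0.0015), Anln, anillin of the myelin sheath (1.16, adjusted p = 0.0023), and Ermn, a cytoskeletal protein of myelin (0.89, adjusted p = 0.0067), rose without overlap.

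The abundant myelin proteins varied more. Mbp, myelin basic protein, was at 4811, 5022, 6444, 7684 and 6704 CPM in control and at 7305, 9273, 5174, 10680 and 9493 CPM in D3 (0.51, adjusted p = 0.098; 0.65, adjusted p = 0.0089, without D3 replicate 3). D3 replicate 3 was within the control range. Sirt2, a deacetylase of oligodendrocytes, was the member that fell (442 to 538 CPM in control, 303 to 384 CPM in D3; -0.46 ± 0.09, adjusted p = 0.0094).

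Among vascular cell types, 3 of 9 mural and meningeal genes were lower and 0 higher (median log2 fold change -0.82). Pdgfrb, the pericyte receptor, was at 47.2, 39.96, 52.8, 33.05 and 41.2 CPM in control and at 25.1, 25.4, 22.7, 22.7 and 21.8 CPM in D3 (-0.80 ± 0.12, adjusted p = 0.0023), with no overlap. Kcnj8 and Rgs5, a channel and a signaling regulator of the same cells, were lower as well (-0.85, adjusted p = 0.008, and -0.68, adjusted p = 0.015). The red cell genes Slc4a1, the anion exchanger (-2.37, adjusted p = 0.0054), and Alas2, of heme synthesis (-1.21, adjusted p = 0.043), were lower out of 5 blood genes, Alas2 losing its call in 7 of the 10 leave-one-out fits, with an adjusted p of up to 0.1. The summed blood level, led by Hba-a1, was 1451, 681, 2215, 804 and 1154 CPM in control and 438, 1315, 381, 749.6 and 494 CPM in D3, overlapping. Blood left in the tissue and its part in these genes were not tested.

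S100b and Aldoc, of astrocytes, were higher (0.66, adjusted p = 0.028, and 0.48, adjusted p = 0.032), 2 of 10 genes, each losing its call in 7 of the 10 leave-one-out fits (adjusted p up to 0.07 and 0.086). Gpr50, an orphan receptor of tanycytes, was at 15.6, 26.4, 10.2, 16.4 and 12.7 CPM in control and 4.78, 4.93, 4.86, 4.88 and 8.74 CPM in D3 (-1.45 ± 0.26, adjusted p = 0.0057), 1 of 11. Gpr50 was lower in every D3 library, least so in replicate 5. Of 9 endothelial genes only Flt1, a VEGF receptor, was called, higher and at the threshold, and its call was lost in 8 of the 10 leave-one-out fits (adjusted p up to 0.12). Of 10 microglial, 4 choroid plexus and 13 immature neuron genes, 0 were called by edgeR with all libraries (2, 1 and 4 at an unadjusted p under 0.05), and DESeq2 called 2, 1 and 1.

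**Figure D4:**
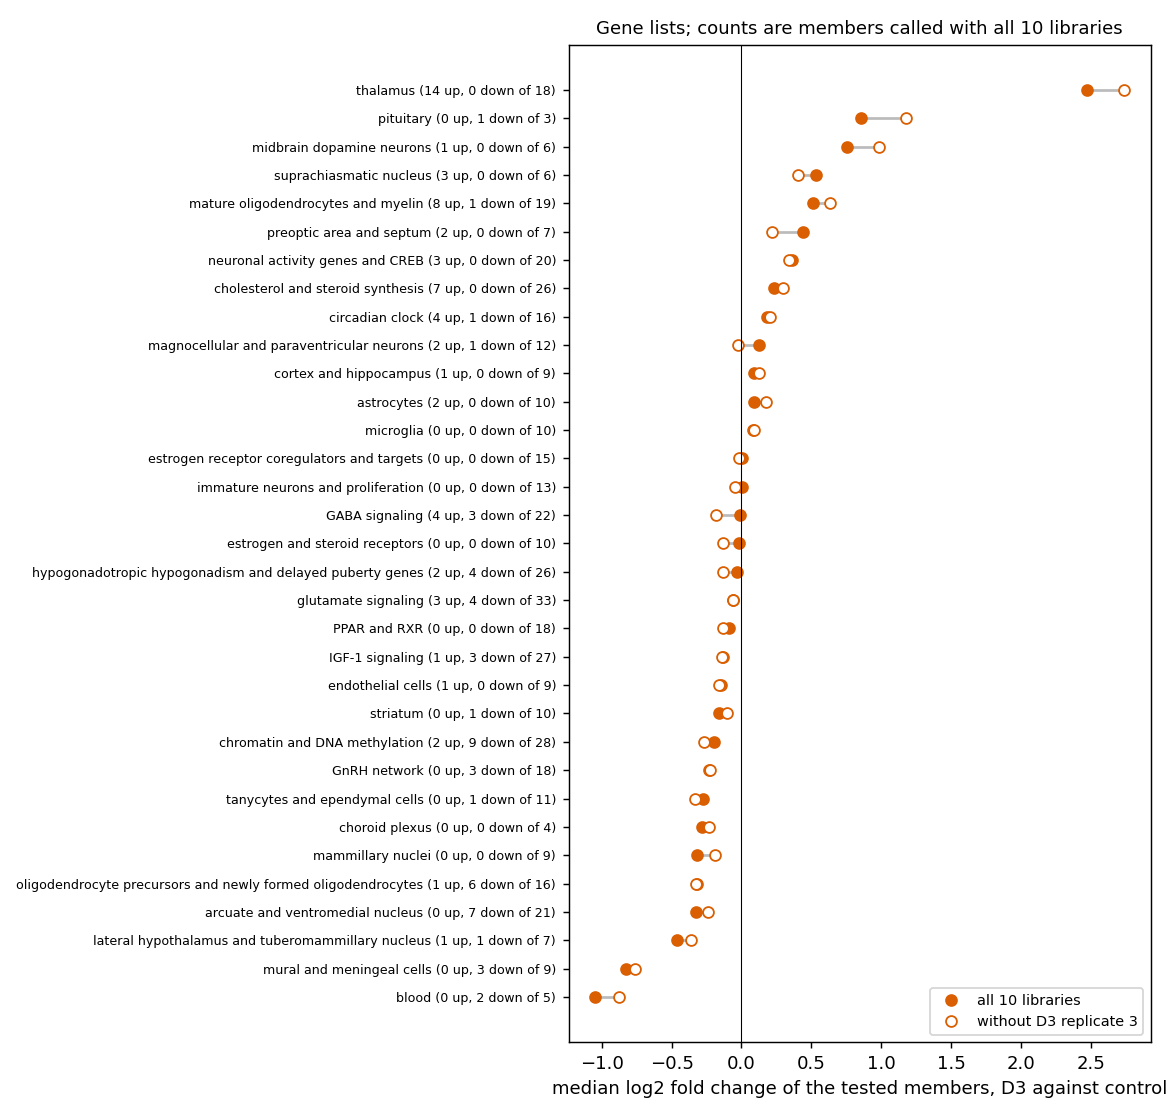
Median log2 fold change of the tested members of 33 lists, D3 against control, with all 10 libraries (filled) and without D3 replicate 3 (open), with the number of members called higher and lower beside each name. The thalamic list is farthest to the right (median 2.47, 14 of 18 members higher), and the median over all genes tested is -0.004.

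Of the 33 lists, the thalamic one had the highest share of members called higher with all libraries. Of 18 genes, 14 were higher and 0 lower (median log2 fold change 2.47; 15 and 0 without D3 replicate 3, and 9 and 0 without control replicate 1 or 2). Prkcd was at 15.4, 11.4, 14.4, 7.96 and 13.01 CPM in control and at 520.1, 355, 17.1, 43.9 and 83.7 CPM in D3 (4.11 ± 0.81, adjusted p = 0.0085). All D3 libraries were above control, but replicate 3 only just. Ptpn3, a phosphatase abundant in thalamic neurons, was at 7.801 to 8.99 CPM in control and at 384, 221, 8.27, 45.2 and 65.7 CPM in D3 (4.18 ± 0.81, adjusted p = 0.0077). Here D3 replicate 3 was within the control range. Without D3 replicates 1 and 2, 7 members were called higher (median 1.33), but 14 higher and 1 lower without D3 replicates 1, 2 and 3 (median 1.5). Without control replicates 1 and 2 it was 0 by edgeR (14 at an unadjusted p under 0.05, median 2.56), but 14 without these and D3 replicate 3 (median 2.84). Prkcd also varied widely in the control libraries labelled PND42, from 10.4 to 333 CPM. The border of the dissection was not tested.

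Of 6 genes of midbrain dopamine neurons, Ddc, aromatic amino acid decarboxylase, was higher, at 35.3, 34.05, 29.2, 35.2 and 32.9 CPM in control and 47.1, 44.8, 47.5, 67.3 and 41.1 CPM in D3 (0.63 ± 0.12, adjusted p = 0.0078), and without D3 replicate 3 5 of the 6 were higher. Slc6a3, the dopamine transporter, was at 4.05, 4.13, 19.6, 14.1 and 5.73 CPM in control and at 82.03, 28.2, 0.694, 108 and 16.4 CPM in D3 (2.37, adjusted p = 0.084; 2.69, adjusted p = 0.0075, without D3 replicate 3). Slc6a3 was high in D3 replicates 1 and 4. Of 7 preoptic and septal genes, Zic1 and Zic2, zinc finger factors, were higher (2.27, adjusted p = 0.0034, and 1.48, adjusted p = 0.014). Zic1 was at 7.77, 8.002, 6.59, 5.47 and 6.08 CPM in control and at 44.8, 32.6, 51.9, 13.8 and 13.9 CPM in D3, high in replicate 3 and in the replicates with the most thalamic transcripts.

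Isl1, a factor of arcuate and striatal neurons, was the 1 of 10 striatal markers called (-0.86 ± 0.15, adjusted p = 0.0053), and Slc17a7 the 1 of 9 cortical and hippocampal markers. Without D3 replicate 3, 3 striatal markers were lower, against 29.9% of all genes called in either direction. Of 3 pituitary genes tested, Lhb, the beta subunit of luteinizing hormone, was lower (-0.66, adjusted p = 0.023), but not on leaving out control replicate 1, 2 or 3 (adjusted p up to 0.06). Tshb, the beta subunit of thyrotropin, was at 19.4, 9.88, 23.96, 6.18 and 16.6 CPM in control and at 45.7, 143, 0.0534, 49.5 and 50.6 CPM in D3 (2.00, adjusted p = 0.12; 2.32, adjusted p = 0.0027, without D3 replicate 3). All D3 libraries but replicate 3 exceeded control.

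By size, 649 genes were higher and 695 lower that were called in both fits, did not overlap after TMM scaling and had a mean level of 1 or more in log2 CPM. The 12 largest increases were those of Prkcd, Oxt, Rab37, Vip, Grid2ip, Zic4, Zic1, Rgs16, Rsph6a, Papln, Slc10a4 and Tf. Rab37, a secretory GTPase, was at 0.627, 0.859, 0.604, 0.921 and 1.15 CPM in control and at 23.8, 15.8, 1.33, 4.54 and 4.11 CPM in D3 (3.64 ± 0.70, adjusted p = 0.0076). Like Prkcd, Grid2ip and Rgs16, it was highest in D3 replicates 1 and 2. Slc10a4, a vesicular protein of cholinergic and monoaminergic neurons, was at 2.37, 1.67, 3.297, 3.47 and 2.44 CPM in control and at 5.83, 4.79, 19.3, 9.42 and 4.02 CPM in D3 (1.75 ± 0.40, adjusted p = 0.016), highest in replicate 3. Of the 12, Papln, an extracellular matrix protein, lost its call in 7 of the 10 leave-one-out fits, with an adjusted p of up to 0.082.

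The 12 largest decreases were those of Alox15, Slc4a1, Col24a1, Cd163, Pgr15l, Col19a1, Col7a1, Fam227a, Vom2r44, Amy1a, Col22a1 and 7SK, between -3.33 and -1.74 in log2 fold change. Alox15, arachidonate 15-lipoxygenase, was at 66.8, 39.5, 85.95, 36.5 and 54.2 CPM in control and at 3.77, 8.06, 4.002, 6.81 and 4.24 CPM in D3 (-3.33 ± 0.29, adjusted p = 0.00026). The D3 values were uniformly low, replicate 3 included, and control libraries labelled PND42 and PND90 were at 2.52 to 8.11 CPM and 27.7 to 85.5 CPM. Col24a1, Col19a1, Col7a1 and Col22a1 encode collagens, a family with no fixed list here and no test. Col19a1 was at 5.48 to 9.24 CPM in control and 1.58 to 2.67 CPM in D3 (-1.90 ± 0.22, adjusted p = 0.00096). Cd163, a scavenger receptor of perivascular macrophages, was at 2.52 to 7.62 CPM and 0.312 to 1.73 CPM (-2.08 ± 0.42, adjusted p = 0.0096). Vom2r44, a vomeronasal receptor of a large family whose members may share reads, lost its call in 6 of the 10 leave-one-out fits, with an adjusted p of up to 0.08.

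The 9 genes called with D3 replicate 3 but not without it had adjusted p-values near the threshold. The 5 largest by size were Kcnj4, an inward rectifier channel, Bora, a mitotic cofactor, Mical1, an actin regulator, Nos3, the endothelial nitric oxide synthase, and Mok, a kinase, with log2 fold changes between -0.63 and -0.38, and each lost its call in 8 or more of the 10 leave-one-out fits. Of the 2227 genes called without it only, the 5 largest were Shox2, Il12rb2, Slc6a3, Chst9 and Tshb. Shox2, a homeodomain factor of the thalamus, was at 0, 0.0537, 0.0929, 0.217 and 0.0444 CPM in control and at 34.8, 20.6, 0, 3.898 and 4.596 CPM in D3, with 8 reads in all in control. It passed the filter on low counts only without D3 replicate 3 and through the other D3 libraries, so no fold change or test is given. In these 5 genes D3 replicate 3 was the lowest D3 library.

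The higher doses, D6 and D12, given at 6 and 12 µg/kg bw/day with 5 libraries each, shared the 5 control libraries with D3, so their values are only set side by side. Against control, 803 of 14853 genes (5.41%) were called for D6 and 5256 of 14870 (35.3%) for D12. Npw was at most 0.2012, 0.2117 and 0.1925 CPM in D3, D6 and D12. These levels are near or under the limit that a count of 0 allows, so no fold change is given. For D3, D6 and D12 in turn, the log2 fold change was 3.81, 3.78 and 3.96 for Oxt. For Mkrn3 it was -0.99, -0.94 and -0.85, and for Gpr17 -1.23, -1.29 and -1.30. For Fos it was 1.23, 0.94 and 0.77, and for Esr2 0.95, 0.01 and -0.06.

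Tested directly with edgeR, D6 against D3 gave 0 called genes of 14729 (291 at an unadjusted p under 0.05, and 1 called by DESeq2) and D12 against D3 0 of 14703 (551, and 1 by DESeq2). On leaving out 1 library, the unadjusted count for D6 ran from 219 to 1315, highest without D6 replicate 1. For D12 it ran from 332 to 1091, highest without D3 replicate 2. Without D3 replicate 3 the numbers of called genes were both 0 by edgeR as well (304 and 414 at an unadjusted p under 0.05). This does not show that the doses act alike. The 95% interval of the log2 difference D12 minus D3 ran from -0.78 to 1.03 for Oxt, from -0.31 to 0.56 for Mkrn3, from -0.39 to 0.22 for Gpr17, from -1.97 to 0.27 for Esr1 and from -0.99 to 0.04 for Fos. For Prkcd it ran from -1.49 to 1.46, the widest of these. For Nr4a1 the difference D12 minus D3 was -0.77 (95% interval -1.29 to -0.25, adjusted p = 0.91).

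**Figure D5:**
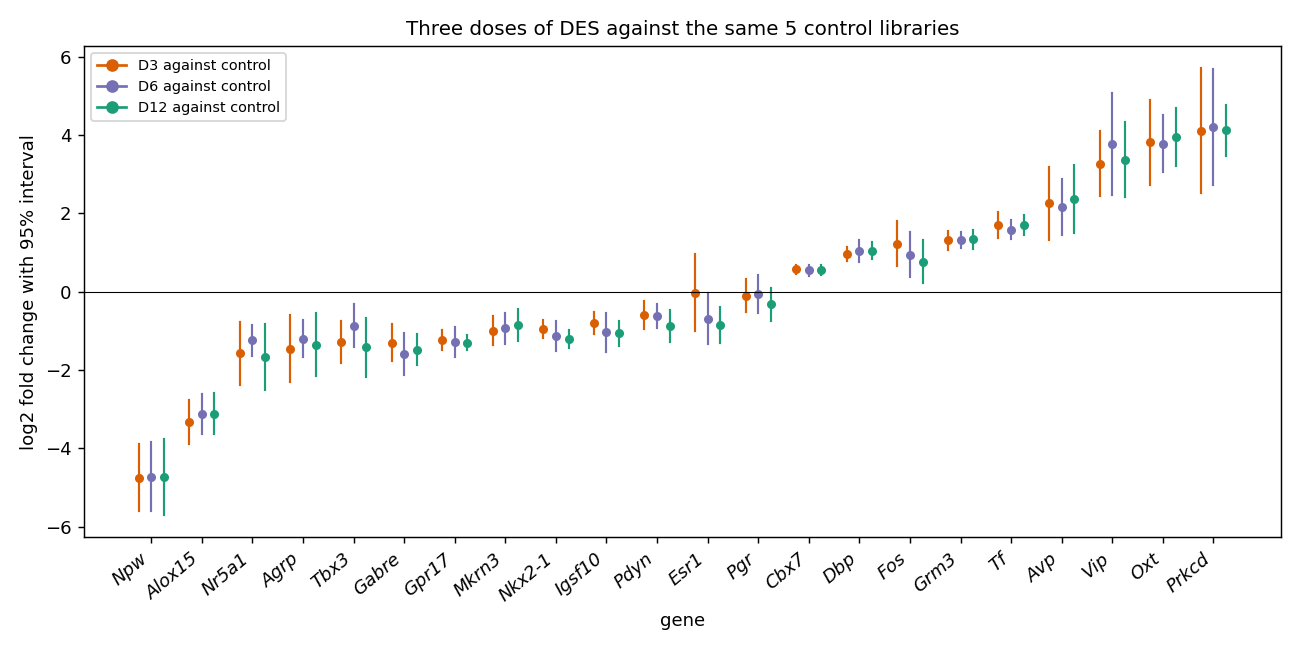
Log2 fold change of 22 genes against the same 5 control libraries for D3, D6 and D12, with 95% intervals. Npw was near or under the limit that a count of 0 allows in D3, D6 and D12. Its points are therefore not read as fold changes. The interval of Esr1 at D3, which holds replicate 3, is the widest of its 3.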

How the data were processed

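The authors prepared stranded messenger RNA libraries, aligned the reads to Rnor_6.0 with STAR and assigned them to Ensembl genes with featureCounts. The deposited values are whole-number read counts for 32883 genes, not normalized. Whether strand or reads shared by near-identical genes entered the counting is not given in the sources used here. No per-sample column was left unmapped. The test was edgeR 4.0.16 (R 4.3.3; TMM, filterByExpr with a minimum count of 10, two-sided quasi-likelihood F test, Benjamini-Hochberg adjustment over all genes tested), each fit holding only the groups compared. CPM are counts scaled to the reads on genes, before TMM. Values after ± are SE, the absolute log2 fold change over the square root of F. Values in parentheses after CPM levels are log2 fold changes, and 95% intervals are normal intervals from the SE. A leave-one-out fit omits 1 of the 10 libraries. DESeq2 1.42.0, other scaling, filters and sets of samples were alternatives. The code was tested on simulated data.

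The comparison and the 33 gene lists (478 of 488 symbols matched) were chosen with earlier results of these data known. Npy and Lep were listed at 0 in all 10 libraries. Genes were named as the 12 largest changes each way called with and without D3 replicate 3 without overlap, the 5 largest called in only one of these fits, up to 4 called members per list with the smallest p, and fixed genes of the reproductive axis. The others were chosen after their values were seen. A few genes are not reported here.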

Additional observations from a re-analysis of the deposited data

Results flagged for a closer look

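Of 354 groups of 5 values examined (the control and D3 values of each named gene, list sum and score), 19 held a highest or lowest library far from the other 4, by a gap of more than 0.71 of the range. Chance alone gives such a gap in about 1 in 20 groups. D3 replicate 3 was the library in 7 of the 19. It was highest of D3 for Esr1 at 48.87 CPM (others 5.714 to 13.21), Prlr at 7.47 CPM (others 0.4148 to 1.785), Gnrh1 at 14.83 CPM (others 0.4024 to 1.785), Crh at 11.15 CPM (others 2.163 to 3.456), Igsf10 at 19.58 CPM (others 12.58 to 14.55) and Lhx8 at 17.29 CPM (others 0.08924 to 0.1843). It was lowest for the summed level of the GnRH network at 633.2 CPM (others 750.8 to 779.2).

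Among the other D3 libraries, D3 replicate 1 was highest for Igf1 at 9.154 CPM (others 2.988 to 4.095), D3 replicate 4 was highest for Ddc at 67.34 CPM (others 41.14 to 47.54), D3 replicate 5 was highest for Gpr50 at 8.745 CPM (others 4.778 to 4.931), D3 replicate 1 was lowest for Junb at 4.979 CPM (others 9.966 to 11.79) and D3 replicate 1 was highest for the summed suprachiasmatic nucleus list at 84.39 CPM (others 49.93 to 58.99). Among control libraries, replicate 2 was highest for Gal at 55.64 CPM (others 35.1 to 40.3), replicate 5 was lowest for Mkrn3 at 2.309 CPM (others 3.305 to 3.622), replicate 2 was highest for Nptx2 at 150.1 CPM (others 98.97 to 112.9), replicate 3 was highest for Nos3 at 12.12 CPM (others 10.37 to 10.83), replicate 4 was lowest for Pik3r1 at 68.42 CPM (others 79.88 to 81.87), replicate 2 was lowest for Enpp6 at 19.98 CPM (others 28.66 to 30.19) and replicate 3 was highest for S100b at 1415 CPM (others 1219 to 1272). For Mkrn3, the lowest control library was still above all D3 libraries.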

How the results depend on the processing

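The 2247 calls between D3 and control became 3226 with DESeq2, 2301 with its size factors in edgeR and 1956 with no filter on low counts. Leaving out 1 library gave 955 (without control replicate 1) to 4465 (without D3 replicate 3). Fitting control and the 3 DES groups together gave 1065, all 7 groups together 1451, and leaving out D3 replicates 1 and 2, D3 replicates 1, 2 and 3, control replicates 1 and 2, or these and D3 replicate 3, sets chosen after seeing the data, gave 1234, 3779, 234 and 1409. The genes called in any of these fits and in the reported one had the same sign. Without D3 replicate 3, the 4465 calls ranged from 3076 to 5317 over its alternatives. Against D3, D6 and D12 gave 1 called gene each with DESeq2, and over leave-one-out fits D6 gave 0 to 1 (1 without D6 replicate 1) and D12 0. Against the control libraries labelled PND42, DESeq2 called 2 and the leave-one-out fits 0.

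Replicate numbers are shared by the groups, but they belong to differently numbered rats, and the deviations of same-numbered libraries correlated at -0.046, -0.103, -0.29, -0.102 and 0.004, so they were not taken as pairs. With the replicate number as a block, 881 genes were called, 868 of them also without it.

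Of 140 genes that the text or its rule names and that entered the test, 104 were called, and 74 of these in each leave-one-out fit. Over 2799 values of these genes under the alternatives, 2280 kept their direction and side of the threshold, 424 lost the call, 62 gained one and 33, all of genes not called, changed sign. Over leave-one-out fits the log2 fold change ran from -0.966 to 0.192 for Esr1, -0.314 to 0.057 for Pgr, -0.209 to 0.347 for Igf1, -0.207 to 0.428 for Kiss1, -0.126 to 0.303 for Trh, -0.413 to 0.122 for Pomc, -0.532 to 0.076 for Lmx1a, -0.149 to 0.189 for Rorb and -0.579 to 0.079 for Pmch. Without D3 replicates 1 and 2 it was 0.463 for Esr1, 0.107 for Pgr, 0.026 for Gal, 0.257 for Prlr, -0.215 for Igf1, -0.04 for Rorb and -0.076 for Chst9. Without D3 replicates 1, 2 and 3 it was -0.11 for Igf1, -0.053 for Kiss1, 0.424 for Pomc, 0.283 for Ghrh, 0.127 for Lmx1a, -0.311 for Rorb and 0.428 for Pmch. Without control replicates 1 and 2 Esr1 was at 0.069, and without these and D3 replicate 3 Crh was at -0.178 and Pomc at 0.227. With the replicate block Rorb was at -0.009. The cause of these changes was not tested.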
